A study of Arabidopsis thaliana with 8 samples.

Results

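Terpene synthases turn prenyl diphosphates into the volatile terpenes that flowers emit, and 5 genes of this family known for flower expression are described here in Arabidopsis buds. They are TPS03 (AT4G16740), TPS11 (AT5G44630), TPS14 (AT1G61680), TPS21 (AT5G23960) and TPS24 (AT3G25810), 5 of the 25738 genes listed in any library. They were chosen by their locus and not by their values, but with earlier results of these data known. Messenger RNA came from buds of floral stages 9 to 13 of the primary inflorescence of 3 mutants, *elf6*, *jmj13* and *ref6*, and of the wild-type accession Col-0. Each mutant carries a T-DNA insertion, in the Col-0 background, in a gene for an enzyme that removes the repressive histone mark H3K27me3. The labels name no allele, and each mutant is a single insertion line. No plant age was given, and all plants were grown in soil under long days. The question of the study was how these demethylases act on flower development and self-fertility. There were 2 libraries per genotype and 8 in all, and nothing in the labels says that they came from separate plants, so the p-values below measure the spread between libraries, which may be technical.

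Monoterpenes are made mainly from the geranyl diphosphate of plastids, which the MEP pathway supplies. Sesquiterpenes are made from farnesyl diphosphate in the cytosol, which the mevalonate pathway supplies. In Arabidopsis flowers the sesquiterpenes are the main volatiles, and cytochromes P450 oxidise many terpenes further, so that a transcript level does not give the amount that is emitted. According to the RefSeq gene notes, TPS11 makes the group B sesquiterpenes and is strongly expressed in the nectaries inside the flower. By the same notes TPS21 makes the group A sesquiterpenes and is strongly expressed in the stigma. TPS03 is described there as an (E,E)-alpha-farnesene synthase that can also form (E)-beta-ocimene. TPS14 is known as a linalool synthase and TPS24 as a synthase of several monoterpenes.

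All 5 genes have 7 exons in the RefSeq annotation of TAIR10.1. TPS03 lies on chromosome 4 (9407611 to 9411140, plus strand), TPS11 on chromosome 5 (18002996 to 18005849, plus strand) and TPS14 on chromosome 1 (22772315 to 22774720, minus strand). TPS21 also lies on chromosome 5 (8092901 to 8095341, plus strand) and TPS24 on chromosome 3 (9430762 to 9434000, plus strand). Their coding sequences hold between 547 and 598 codons before the stop. Terpene synthases of this class bind the metal ions of the reaction through an aspartate-rich motif. The coding bases around it are printed because they show what all 5 genes share in spite of little overall likeness. Each line is from RefSeq, build TAIR10.1, 5′ to 3′ on the coding strand, with 15 bases of motif in capitals (2 aspartate codons, any 2 codons and a further aspartate codon) and 15 bases on each side.
TPS03, chr4:9409547-9409591: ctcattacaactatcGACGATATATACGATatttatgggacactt
TPS11, chr5:18004492-18004536: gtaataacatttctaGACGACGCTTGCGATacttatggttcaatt
TPS14, chr1:22773400-22773444: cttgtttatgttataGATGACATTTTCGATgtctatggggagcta
TPS21, chr5:8094114-8094158: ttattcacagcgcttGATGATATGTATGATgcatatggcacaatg
TPS24, chr3:9432410-9432454: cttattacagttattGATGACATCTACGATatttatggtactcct

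The motif starts at codon 320 in TPS03, 310 in TPS11, 331 in TPS14, 299 in TPS21 and 344 in TPS24, within 1 exon in every gene. TPS11 holds another match further on, at codon 454, which spans an exon boundary. Over the whole coding sequence the 5 genes were 53.2% to 69.3% identical to each other, with TPS03 and TPS24 the closest pair. The nearest copies elsewhere were closer for TPS24, which was 85.6% identical over 1839 nt to both TPS23 (AT3G25830) and TPS27 (AT3G25820), the 1,8-cineole synthase genes. TPS27 had 0 counts in all 8 libraries and TPS23 at most 2, so few of the reads of this group were assigned to the copies. The deposited TPS24 value also pools the transcript of AT3G25815, a pseudogene in RefSeq that lies 958 nt away on the opposite strand. TPS14 overlaps the end of AT1G61670 on the other strand, and the use of strand in counting was not stated in the sources used here. The TPS24 and TPS14 values are uncertain to that extent.

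The total of expected counts was between 11373306 and 12048319 per library. *ref6* replicate 1 and Col-0 replicate 1 stood apart from the rest. Their 50 most abundant genes took 30.5% and 29.3% of the counts, against 18.4% to 21.4% in the other 6 libraries. Their TMM factors, edgeR's correction for such differences in composition, were 0.742 and 0.739, against 1.012 to 1.218. For this reason each gene is given on 2 scales. TPM is per gene length and has a common total in each library, and is used here to compare genes. TMM-scaled CPM, the counts scaled to the library total times that factor, is the scale of the tests. Organ identity genes that define floral tissue (AP1, AP3, PI, AG and SEP3) were detected in every library, at 189.0 to 364.3 TPM in sum. Of the mutated genes, ELF6 had 0.4 and 0.63 TPM in *elf6*, against 1.37 and 2.0 TPM in Col-0. JMJ13 in *jmj13* (1.84 and 1.86 TPM, against 0.79 and 2.08 TPM in Col-0) and REF6 in *ref6* (2.63 and 2.54 TPM, against 1.76 and 2.29 TPM in Col-0) do not check those labels. For *ref6* the paper reports that the part of REF6 that encodes the catalytic domain was still expressed. It proposes that this mutant likely keeps its binding to targets and its activity. For *elf6* and *jmj13*, in contrast, the paper states that the T-DNA fully disrupts this domain.

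All 5 genes were detected in all 8 libraries and passed the low-count filter, and their levels spanned a wide range. The mean TPM over the 8 libraries was 18.6 for TPS11, 9.99 for TPS14, 6.69 for TPS21, 5.21 for TPS24 and 0.83 for TPS03. By this mean, TPS11 was above 77.9% of the 25738 listed genes, and TPS03 above 26.2%. The genes were not in this order in every library. TPS11 was the first of the 5 and TPS03 the last in all 8 libraries, while TPS21 was above TPS14 in *ref6* replicate 1, at 6.16 against 5.13 TPM, and TPS24 was above TPS21 in *elf6* replicate 1 and in Col-0 replicate 2. TPS24 made up 7.9% to 17.6% of the summed TPM of the 5 genes and TPS11 33.8% to 55.7%.

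**Figure D1:**
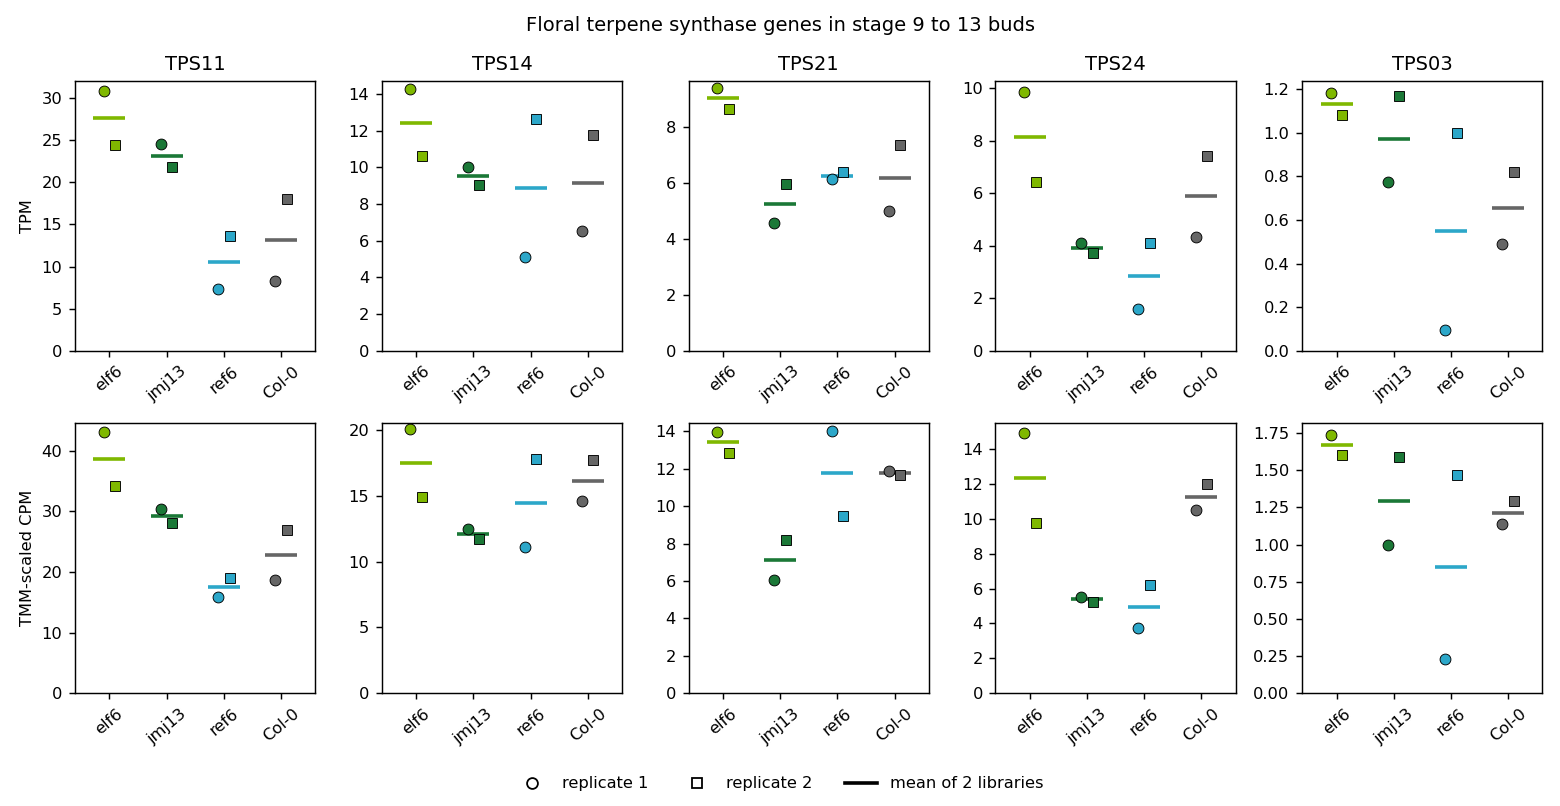
Level of the 5 genes in each of the 8 libraries, as TPM (upper row) and as TMM-scaled CPM (lower row), by genotype on the horizontal axis. Circles are replicate 1, squares replicate 2 and bars the mean of 2 libraries; TPS11 reached 30.9 and 24.4 TPM in *elf6*, above both Col-0 libraries on both scales, and TPS24 in *jmj13* and *ref6* lay below both Col-0 libraries.

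TPS11, the gene of the nectary sesquiterpenes, was the most abundant of the 5. It had 546 and 428 counts in *elf6*, 423 and 371 counts in *jmj13*, 140 and 245 counts in *ref6*, and 163 and 312 counts in Col-0. In TPM these were 30.9 and 24.4 in *elf6*, 24.5 and 21.8 in *jmj13*, 7.38 and 13.6 in *ref6*, and 8.34 and 18.0 in Col-0. Both libraries of *elf6* and both of *jmj13* lay above all libraries of *ref6* and Col-0, whose ranges overlapped each other. In TPM, however, 40.7% of all genes tested were higher without overlap in *elf6* over Col-0, 54.5% in *jmj13* over Col-0 and 46.2% in *jmj13* over *ref6*. In order of mean TPM, *elf6* came first, then *jmj13*, Col-0 and *ref6*, and *elf6* and *jmj13* overlapped. On the TMM scale *elf6* averaged 38.7 ± 6.31 CPM, *jmj13* 29.2 ± 1.58, *ref6* 17.4 ± 2.26 and Col-0 22.8 ± 5.85 (SD, n = 2 each). The log2 fold change was 0.76 in *elf6* over Col-0 (SE 0.265, edgeR adjusted p = 0.294) and 0.36 in *jmj13* over Col-0 (SE 0.264, edgeR adjusted p = 0.586). The largest for this gene was 1.15 in *elf6* over *ref6*, with a 95% confidence interval of 0.55 to 1.74 and an adjusted p of 0.121 in edgeR. None of these passed the threshold.

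TPS21, the gene of the stigma sesquiterpenes, had another order of genotypes. It had 177 and 161 counts in *elf6*, 84 and 108 counts in *jmj13*, 124 and 122 counts in *ref6*, and 104 and 135 counts in Col-0. In TPM these were 9.42 and 8.66 in *elf6*, 4.58 and 5.97 in *jmj13*, 6.16 and 6.39 in *ref6*, and 5.02 and 7.36 in Col-0. The *elf6* libraries were above all others in TPM, where 31.4% of all genes were higher without overlap over *ref6* and 15.4% over *jmj13*, and *ref6* and *jmj13* overlapped with Col-0. In TMM-scaled CPM, however, *elf6* (13.98 and 12.86) overlapped with *ref6* (14.02 and 9.47). On the TMM scale *jmj13* was the lowest, at 7.11 ± 1.53 CPM against 11.8 ± 0.18 in Col-0 (SD, n = 2 each), and below every other library. The log2 fold change of *jmj13* over Col-0 was -0.73 (SE 0.288, edgeR adjusted p = 0.425), with an interval of -1.37 to -0.09. That of *elf6* over *jmj13* was 0.92 (SE 0.286, edgeR adjusted p = 0.259). In *ref6* over Col-0 it was -0.01, with an interval of -0.64 to 0.62, so that a 2-fold difference in either direction lay outside the interval.

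TPS14, the linalool synthase gene, had 254 and 187 counts in *elf6*, 174 and 155 counts in *jmj13*, 98 and 229 counts in *ref6*, and 128 and 205 counts in Col-0. Its TPM was 14.3 and 10.6 in *elf6*, 10.0 and 9.03 in *jmj13*, 5.13 and 12.6 in *ref6*, and 6.51 and 11.8 in Col-0. The ranges of *elf6* and *ref6* overlapped with that of Col-0 on both scales, and the direction of *jmj13* against Col-0 depended on the scale. Its libraries lay inside the Col-0 range in TPM and below it in TMM-scaled CPM, at 12.1 ± 0.52 CPM against 16.2 ± 2.15 in Col-0 (SD, n = 2 each). The log2 fold changes over Col-0 were 0.11 in *elf6* (interval -0.53 to 0.75), -0.42 in *jmj13* (-1.06 to 0.23) and -0.16 in *ref6* (-0.81 to 0.49). The lower and higher *ref6* libraries were 11.1 and 17.8 on the TMM scale, wider apart than those of any other genotype for this gene.

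TPS24, the gene for several monoterpenes, had the fold changes farthest below 0 among the 5. It had 188.98 and 122 counts in *elf6*, 77 and 69 counts in *jmj13*, 33 and 80 counts in *ref6*, and 92 and 139 counts in Col-0. In TPM these were 9.87 and 6.44 in *elf6*, 4.13 and 3.75 in *jmj13*, 1.61 and 4.10 in *ref6*, and 4.35 and 7.42 in Col-0. Both *jmj13* and both *ref6* libraries lay below both libraries of Col-0 in TPM, as did 6.47% of all genes in *jmj13* and 7.34% in *ref6*, while the *elf6* range overlapped that of Col-0. On the TMM scale the means were 12.3 ± 3.66 CPM in *elf6*, 5.38 ± 0.21 in *jmj13*, 4.97 ± 1.75 in *ref6* and 11.3 ± 1.04 in Col-0 (SD, n = 2 each). The log2 fold change was -1.07 in *jmj13* over Col-0 (interval -1.8 to -0.34, edgeR adjusted p = 0.365) and -1.16 in *ref6* over Col-0 (interval -1.91 to -0.42, edgeR adjusted p = 0.915). It was 1.2 in *elf6* over *jmj13* (SE 0.327, edgeR adjusted p = 0.179) and 1.29 in *elf6* over *ref6* (SE 0.333, edgeR adjusted p = 0.161). These 4 values were past 2-fold and none passed the test. Whether they were past 2-fold depended on the fit. In *jmj13* over Col-0 the value was -0.64 with library size only and -0.49 with limma on FPKM, and the ratio of mean TPM was 0.669. In *ref6* over Col-0 it was -0.86 without *ref6* replicate 1. Without regard to a test, 6.67% of all genes were at least 2-fold lower in *jmj13* than in Col-0 and 3.84% in *ref6* than in Col-0. At least 2-fold higher were 4.84% in *elf6* over *jmj13* and 5.27% in *elf6* over *ref6*.

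TPS03, the farnesene synthase gene, was near the limit of detection. It had 22 and 20 counts in *elf6*, 14 and 21 counts in *jmj13*, 2 and 19 counts in *ref6*, and 10 and 15 counts in Col-0. In TPM these were 1.18 and 1.08 in *elf6*, 0.78 and 1.17 in *jmj13*, 0.10 and 1.00 in *ref6*, and 0.49 and 0.82 in Col-0. Only in *elf6* did both libraries lie above both Col-0 libraries, and the *ref6* libraries were on either side of them. A count of 2 has an exact 95% Poisson interval of 0.242 to 7.22 and a count of 22 one of 13.8 to 33.3, for counting error only. The 95% interval of its fold change reached from -1.1 to 1.99 on the log2 scale in *elf6* over Col-0, so that a 2-fold difference in either direction was not detectable for this gene at this depth. TPS02 (AT4G16730), its tandem neighbour 1474 nt away and 67.6% identical, was as low, at 0.42 to 0.91 TPM over the 8 libraries.

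In each of the 6 comparisons none of the 5 genes had an edgeR adjusted p under 0.05 with a change of at least 2-fold. By the same rule 0.12% of the 19939 genes tested passed in *elf6* over Col-0, 0% in *jmj13* over Col-0 and 0.00502% in *ref6* over Col-0. The shares were 0.772% in *elf6* over *jmj13*, 0.266% in *elf6* over *ref6* and 0.0301% in *jmj13* over *ref6*. With so few genes past the threshold anywhere, a count of 0 among 5 genes is near the background. At an unadjusted p under 0.05, 1 of the 5 genes passed in *elf6* over Col-0, where 12.4% of all genes did. The number was 2 in *jmj13* over Col-0, where 11.2% of all genes passed, and 1 in *ref6* over Col-0, where 4.67% did. Between mutants it was 2 genes in each comparison, against 8.78% of all genes in *elf6* over *jmj13*, 11.7% in *elf6* over *ref6* and 8.97% in *jmj13* over *ref6*. DESeq2 passed 1 of the 5, TPS11 in *elf6* over *ref6* (log2 fold change 1.13, DESeq2 adjusted p = 0.0253), and none in the other 5 comparisons. Of all genes, DESeq2 passed 2.13% in that comparison, 2.19%, 1.32% and 0.166% in *elf6*, *jmj13* and *ref6* over Col-0, 2.18% in *elf6* over *jmj13* and 0.838% in *jmj13* over *ref6*. Over all alternatives tried, the adjusted p of that value ran from 0.0253 to 0.732.

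**Figure D2:**
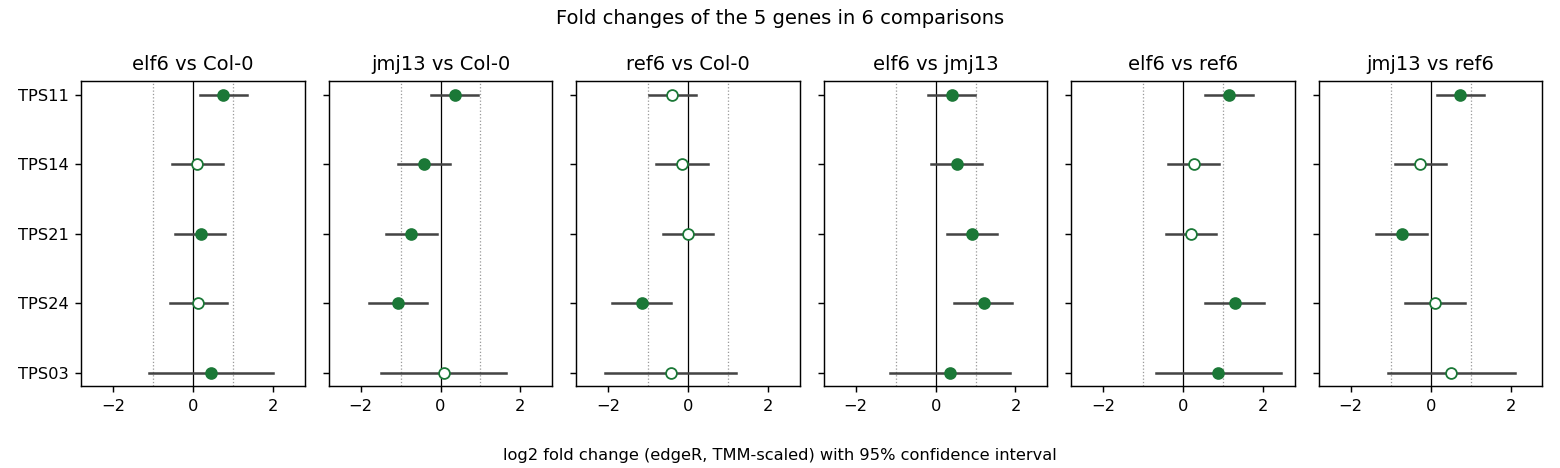
Fold changes of the 5 genes in the 6 comparisons, as log2 fold change from edgeR (horizontal axis, first-named genotype over second) with its 95% confidence interval as a line. Filled points are genes whose libraries did not overlap between the 2 genotypes on the TMM scale, open points those that overlapped, and dotted lines mark 2-fold. The filled points of *elf6* over *jmj13* are all above 0, from 0.36 to 1.2. TPS03 is filled there by a margin of 1.6 against 1.59 CPM only.

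The comparison of *elf6* with *jmj13* was the only one of the 6 in which all 5 genes lay on the same side with no overlap of libraries on the TMM scale. All 5 were higher in *elf6*, with log2 fold changes of 0.36 for TPS03, 0.4 for TPS11, 0.53 for TPS14, 0.92 for TPS21 and 1.2 for TPS24. TPS03 was apart by a very small margin, 1.6 CPM in *elf6* replicate 2 against 1.59 CPM in *jmj13* replicate 2. These libraries had 20 and 21 counts, and the interval of its fold change was -1.14 to 1.86. The median of the 5 was 0.53, beside -0.03 over all genes tested, and 23.5% of all genes were likewise higher in both *elf6* libraries. In TPM the libraries of TPS03 and TPS11 overlapped, and 3 of the 5 genes were apart, where 15.4% of all genes were. Other lists also lay higher in *elf6* than in *jmj13* without overlap on the TMM scale. These were the 6 touch and wounding genes (median log2 fold change 1.64), all 6 tested jasmonate genes (median 1), all 5 tested tapetum genes (median 0.76) and 2 of the 3 nectary genes (median 0.85). Some lists did not. Of the 4 tested stigma and transmitting tract genes, 3 were lower and 1 higher without overlap (median -0.58). Of the 11 tested regulators, 6 were lower and 4 higher (median -0.24). The 5 late pollen genes (median -0.54) all overlapped. Their part in the values of the 5 synthase genes was not tested. In *elf6* over Col-0, 3 of the 5 genes had no overlap on the TMM scale (TPS03, TPS11 and TPS21), where 23.7% of all genes were higher without overlap. The same 3 were apart in TPM, where the share of all genes was 40.7%. In *elf6* over *ref6* 3 genes (TPS03, TPS11 and TPS24) were higher without overlap, beside 23.6% of all genes. In *jmj13* over Col-0, TPS14, TPS21 and TPS24 were lower without overlap and TPS11 higher, beside 21.5% of all genes lower and 24.7% higher. In *ref6* over Col-0 only TPS24 was apart, lower, beside 12.5% of all genes, and in *jmj13* over *ref6* TPS11 was higher, beside 22.5%, and TPS21 lower, beside 19.2%. An exact two-sided permutation test of a single gene between genotypes of 2 libraries each cannot go below p = 0.333. The comparisons that share a genotype are not independent of each other.

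The proportions among the 5 genes, which no scaling of a library changes, also differed between genotypes. TPS11 made up 47.0% and 47.7% of their summed TPM in *elf6*, 55.7% and 52.2% in *jmj13*, 36.2% and 36.1% in *ref6*, and 33.8% and 39.7% in Col-0. Its share was above that of every *ref6* and Col-0 library in both *jmj13* and *elf6*. TPS24 made up 15% and 12.6% in *elf6*, 9.4% and 9.0% in *jmj13*, 7.9% and 10.9% in *ref6*, and 17.6% and 16.3% in Col-0. The ratio of TPS11 to TPS24, looked at after their values were seen, was 3.13 and 3.79 in *elf6*, 5.94 and 5.81 in *jmj13*, 4.58 and 3.32 in *ref6*, and 1.92 and 2.43 in Col-0. All 6 mutant libraries were above both Col-0 libraries. These 2 genes had the highest and the lowest log2 fold change of the 5 in *jmj13* over Col-0 (0.36 and -1.07). A difference in their ratio thus follows in part from the choice of the pair. It was not tested, and the share of other gene pairs that lie apart in this way was not computed.

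The 5 genes did not share a single pattern over the 8 libraries. Pearson's r between pairs, on log2 TMM-scaled CPM, ran from -0.19 for TPS03 and TPS21 to 0.82 for TPS14 and TPS24. TPS11 and TPS21, both sesquiterpene genes, had an r of -0.07. These values describe 8 libraries of 4 genotypes, which share their genotype and composition. The genes whose pattern was most like that of TPS11, of 19938 compared, were TRM27 and AT1G30475 (r = 0.955 each) and AT4G26230 (0.953). For TPS03 they were ACS6 (0.992), BGLU15 (0.99) and AT2G38090 (0.989), for TPS14 AT1G03620 (0.97), NRS/ER (0.965) and FRB1 (0.953). For TPS21 they were AT5G08760 (0.968), LYM2 (0.96) and PRPS20 (0.958), and for TPS24 IMD1 (0.947), AT5G23750 (0.944) and MLO10 (0.943). With 8 libraries and this many genes, high values of r are found for any pattern.

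CYP706A3 (AT5G44620), the next gene to TPS11 on the chromosome at 2544 nt and on the opposite strand, encodes a P450 that oxidises floral terpenes. It was more abundant than any of the 5 synthase genes. It had 165.2 and 147.8 TPM in *elf6*, 147.0 and 142.8 TPM in *jmj13*, 63.2 and 107.2 TPM in *ref6*, and 52.8 and 128.9 TPM in Col-0. As for TPS11, all *elf6* and *jmj13* libraries were above all libraries of *ref6* and Col-0 in TPM, where 54.5% of all genes were higher without overlap in *jmj13* over Col-0. On the TMM scale the *jmj13* and Col-0 libraries of CYP706A3 overlapped, which those of TPS11 did not. Its r with TPS11 over the 8 libraries was 0.93, rank 16 of 19938 genes. The log2 fold change was 0.49 in *elf6* over Col-0 (SE 0.288, edgeR adjusted p = 0.513) and 0.62 in *elf6* over *ref6* (SE 0.288, edgeR adjusted p = 0.448), and neither passed.

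Among the other 5 listed P450 genes of floral terpene metabolism, 4 were tested and 1 passed in a comparison. This was CYP82G1, which in Arabidopsis leaves makes the homoterpene TMTT. It had 12.2 and 12.8 TPM in *elf6*, against 2.66 and 3.85 TPM in *ref6*. The log2 fold change of 1.66 (SE 0.252) had an edgeR adjusted p of 0.0344. In *elf6* over Col-0 it was 1 (4.05 and 5.66 TPM in Col-0, edgeR adjusted p = 0.148). CYP76C1, which oxidises linalool, the product of TPS14, had 12.4 and 15.5 TPM in *elf6*, 13.6 and 14.0 TPM in *jmj13*, 7.51 and 10.2 TPM in *ref6*, and 10.5 and 16.1 TPM in Col-0. CYP76C3 and CYP71B31, which also oxidise linalool, were at 4.3 to 12.4 TPM and 0.35 to 4.7 TPM over the 8 libraries, and neither passed in any of the 6 comparisons.

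Of the 27 other terpene synthase genes listed, 20 were found in at least 1 library and 9 passed the low-count filter. None passed the test in any of the 6 comparisons. TPS10, which makes linalool and ocimene in Arabidopsis, was the most abundant of them. It had 9.15 and 17.7 TPM in *elf6*, 5.15 and 10.0 TPM in *jmj13*, 11.5 and 18.0 TPM in *ref6*, and 9.83 and 10.8 TPM in Col-0. Its log2 fold change of -1.37 in *jmj13* over *ref6* (SE 0.392, edgeR adjusted p = 0.414) and of -0.97 in *jmj13* over Col-0 (SE 0.391, edgeR adjusted p = 0.425) did not pass.

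**Figure D3:**
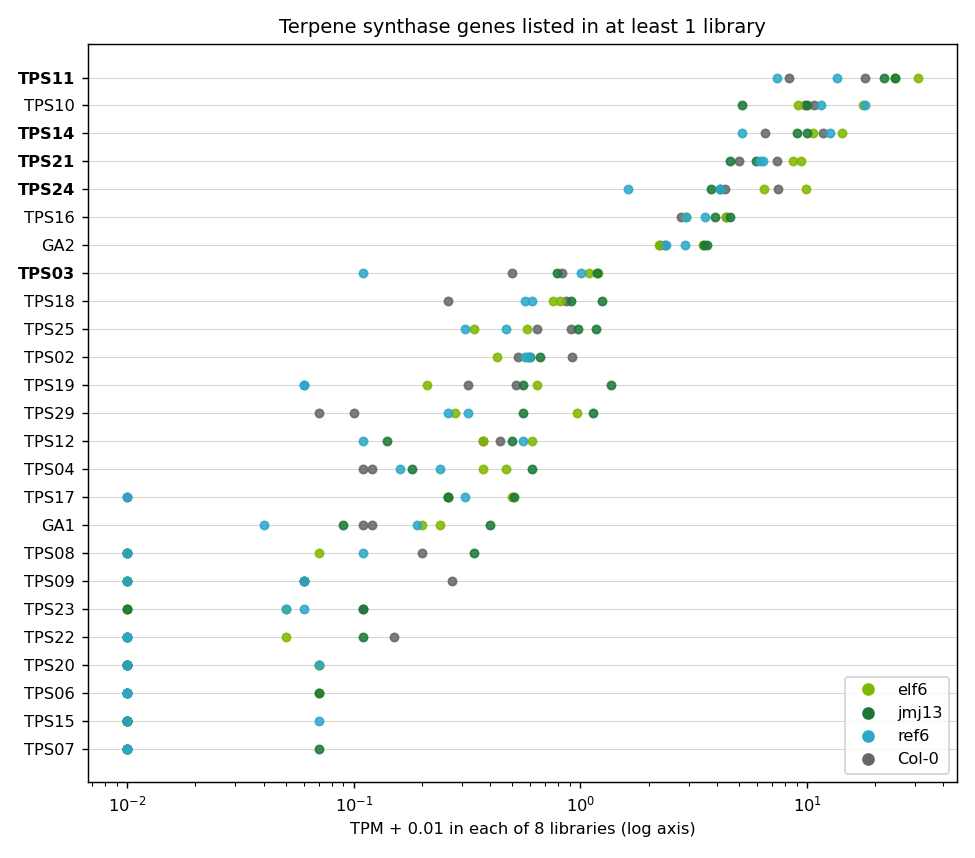
Level of the 5 genes (bold) and of the 20 other terpene synthase genes listed in at least 1 library, as TPM + 0.01 on a log axis, with 1 point per library coloured by genotype. TPS11 and TPS10 have the highest means, TPS03 lies near 1 TPM, and points at 0.01 are libraries with 0 counts.

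None of the genes that supply the substrates passed the test in any comparison. For the 8 genes of the plastid MEP pathway the median log2 fold change was 0.2 in *elf6* over Col-0, -0.08 in *jmj13* over Col-0 and 0.32 in *elf6* over *jmj13*. In that last comparison 7 of the 8 were higher in *elf6* without overlap of libraries, where 23.5% of all genes were. For the 10 genes of the mevalonate pathway the medians were 0.06, -0.14 and 0.14 in the same order of comparisons. For the 5 prenyl diphosphate synthase genes, among them those of the direct substrates, they were 0.16, 0.08 and 0.08. GGR was the lowest of these 5, at -1.47 in *elf6* over Col-0 and -1.3 in *jmj13* over Col-0. It had 275.4 and 141.2 TPM in Col-0, the higher value in replicate 1, which stood apart. In *elf6* it had 109.4 and 103.4 TPM, and in *jmj13* 131.3 and 133.1 TPM. The medians over all genes tested were 0.03, 0.04 and -0.03.

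**Figure D4:**
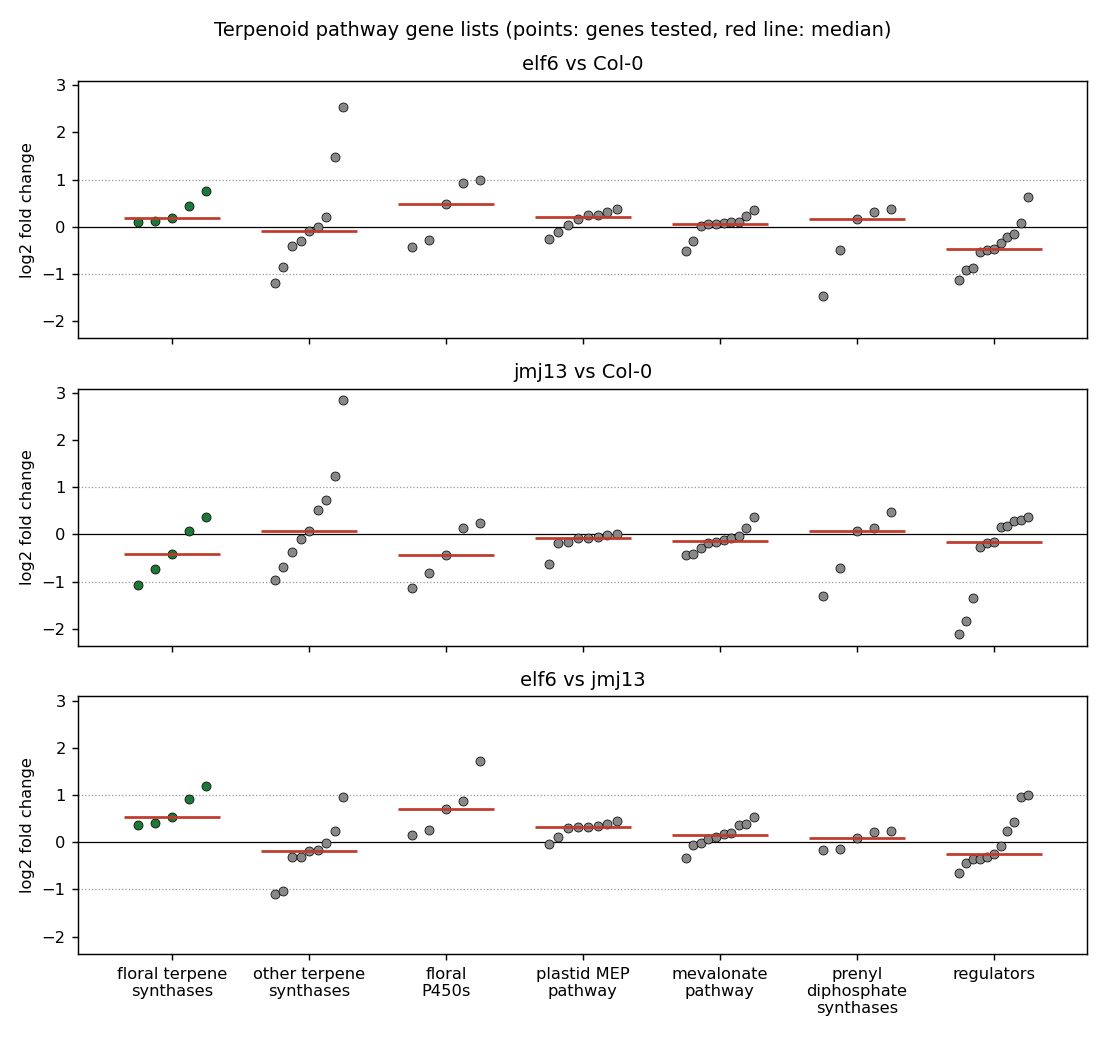
Log2 fold change from edgeR (vertical axis) of the 5 floral terpene synthase genes (green) and of the genes of 6 other terpenoid lists (grey) in *elf6* over Col-0, *jmj13* over Col-0 and *elf6* over *jmj13*, with 1 point per gene tested, the list's median as a red line and 2-fold as dotted lines. The median of the 5 genes is 0.19, -0.42 and 0.53 in the 3 panels, and no point of these lists passed the test in these comparisons.

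Transcription factors known to act on terpene synthase genes in Arabidopsis flowers had patterns of their own. MYC2, a jasmonate-response factor that binds the promoters of TPS11 and TPS21, had 37.4 and 35.9 TPM in *elf6*, 30.6 and 37.7 TPM in *jmj13*, 19.2 and 45.8 TPM in *ref6*, and 12.7 and 25.8 TPM in Col-0. Its r with the 5 genes over the 8 libraries was between -0.09 and 0.34. MYB21, a stamen and petal growth factor that also acts on terpene synthase genes in flowers, had 33.0 and 33.3 TPM in *elf6*, 26.8 and 27.6 TPM in *jmj13*, 48.7 and 34.3 TPM in *ref6*, and 52.2 and 38.7 TPM in Col-0. MYB24, its close relative, had 20.9 and 24.1 TPM in *elf6*, 13.1 and 11.8 TPM in *jmj13*, 44.6 and 29.4 TPM in *ref6*, and 36.1 and 37.9 TPM in Col-0. Both were lowest in *jmj13*, and MYB24 had a log2 fold change of -2.12 there over Col-0 (SE 0.382, edgeR adjusted p = 0.2). The r of MYB24 was 0.71 with TPS21 and -0.67 with TPS11, and that of MYB21 was 0.63 and -0.7. With TPS14 and TPS24 the r of MYB24 was 0.08 and 0.07 and that of MYB21 -0.12 and 0, and with TPS03 the values were -0.56 for MYB24 and -0.59 for MYB21. Of the 12 regulators listed, 11 were tested and none passed in any comparison.

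The 250 bases before the start of each of the 5 genes were searched on both strands for the G-box CACGTG, to which MYC2 binds, and for its variant CACATG. No G-box was found in any of the 5, where 6.5% of 27443 such windows held it. The variant was found once, in TPS14, at 175 nt before the start, where 11.1% of the windows held it. The annotated transcript of TPS14 is no longer than its coding sequence (1710 nt each), so its window ends at the start codon. The transcripts of the other members are longer than their coding sequences, so the windows are not fully alike. These are matches of letters only.

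Markers of other tissues and of handling were summed per library and set beside these results, and their part in them was not tested. The 3 nectary genes (CRC, SWEET9 and CWINV4), none at 0 in any library, summed to 160.4 and 206.8 TPM in *elf6*, 130.7 and 163.4 TPM in *jmj13*, 83.2 and 137.8 TPM in *ref6*, and 100.9 and 216.7 TPM in Col-0. CRC carried most of this sum. The paper describes CRC as a gene of gynoecium development, so the sum does not stand for the nectary alone. In TPM the Col-0 range covered both *elf6* and both *jmj13* libraries. On the TMM scale of the tests, the median log2 fold change of the 3 genes was -0.11 in *elf6* over Col-0, -0.91 in *jmj13* over Col-0 and -0.96 in *ref6* over Col-0. In *jmj13* and in *ref6* over Col-0, 2 of the 3 were lower without overlap. In *elf6* over *jmj13* the median was 0.85, with 2 of 3 higher without overlap. TPS24 had 0.13 in *elf6* over Col-0, -1.07 in *jmj13* over Col-0, -1.16 in *ref6* over Col-0 and 1.2 in *elf6* over *jmj13*. TPS11, the nectary gene of the RefSeq notes, had 0.76, 0.36, -0.39 and 0.4 in the same order. In *elf6* over *ref6* and *jmj13* over *ref6* the nectary medians were 0.81 and -0.01. There TPS24 had 1.29 and 0.1, and TPS11 1.15 and 0.74. TPS24 differed in sign from the nectary median only where both values were near 0, in *elf6* over Col-0 and in *jmj13* over *ref6*. TPS11 differed in sign in those comparisons and in *jmj13* over Col-0 (0.36 against -0.91). Neither relation was tested. The 5 stigma and transmitting tract genes summed to 37.4 and 33.8 TPM in *elf6*, 40.6 and 37.9 TPM in *jmj13*, 16.8 and 25.7 TPM in *ref6*, and 12.6 and 33.2 TPM in Col-0. Most of this sum came from SLR1, with 32.1 and 27.1 TPM in *elf6*, against 6.69 and 23.3 TPM in Col-0. Among the 4 genes of this list that were tested, SLR1 was higher in *elf6* than in Col-0 without overlap on the TMM scale (log2 fold change 0.73). HEC1 and HEC2 were lower (-1.14 and -0.71), and the median was -0.64. The median was 0.32 in *jmj13* over Col-0, -0.17 in *ref6* over Col-0 and -0.58 in *elf6* over *jmj13*. It was -0.39 in *elf6* over *ref6* and 0.2 in *jmj13* over *ref6*. TPS21, the stigma gene of the RefSeq notes, had -0.73, -0.01, 0.92, 0.2 and -0.72 in that order. In *elf6* over Col-0 TPS21 had 0.19. STIG1, a defining stigma gene of this list, was at 0 in 4 of the 8 libraries. Fewer cells of a type and less RNA per cell cannot be told apart in whole buds.

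The 6 tapetum genes, from the layer that feeds the pollen, summed to 1033 and 1413 TPM in *elf6*, 800.7 and 800.8 TPM in *jmj13*, 726.0 and 1235 TPM in *ref6*, and 1396 and 1240 TPM in Col-0, with at most 1 of them at 0 in a library. The 5 late pollen genes summed to 1262 and 666.7 TPM in *elf6*, 2182 and 1168 TPM in *jmj13*, 1046 and 1112 TPM in *ref6*, and 1608 and 2554 TPM in Col-0. The 6 genes of touch and wounding stood furthest apart, at 1518 and 1678 TPM in *elf6*, 164.4 and 271.8 TPM in *jmj13*, 70.5 and 274.2 TPM in *ref6*, and 286.4 and 208.3 TPM in Col-0. None of the 6 passed the test in any comparison, with a lowest edgeR adjusted p of 0.0537. The 7 genes of jasmonate synthesis and response had a median log2 fold change of 0.58 in *elf6* over Col-0, -0.38 in *jmj13* over Col-0 and 0.67 in *ref6* over Col-0 among the 6 tested. It was 1 in *elf6* over *jmj13*, with 5 of the 6 at an unadjusted p under 0.05, and -1.06 in *jmj13* over *ref6*, with 5 of the 6 lower without overlap. None passed, with a lowest edgeR adjusted p of 0.0657.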

How the data were processed

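The 8 bud RNA libraries, 2 per genotype and read from a single end, were grouped by the sample labels. The study's methods name TAIR10 and bowtie2, and the submitters' processing notes also name RSEM, versions not given. The gene annotation, read filters and use of strand were not given in the sources used here. The authors deposited 1 table per library. It holds the expected count, an estimate of the reads of a gene that need not be whole (89.2% to 91.7% of listed values were), and FPKM, which the authors scaled by gene length and library total. An unlisted gene was taken as 0. The tables also hold a gene length deposited by the authors, which was only compared with the annotation.

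TPM was computed by scaling FPKM to a common total. Rounded expected counts were fitted over all 8 libraries with edgeR 4.0.16 (TMM, filterByExpr by genotype, glmQLFit, glmQLFTest, genotype as the only factor, R 4.3.3), with Benjamini-Hochberg adjustment over 19939 genes. A gene passed at an adjusted p under 0.05 and at least 2-fold change. SE is the log2 fold change over the root of F. Intervals are 95%, and Poisson intervals cover counting error only. The study's NOISeq was not run. Likeness is Pearson's r of log2 TMM-scaled CPM with a prior count of 2. The fit was tested on simulated data with the same dispersion, the spread beyond counting error, for every gene and no library apart in composition. That test does not show how the fit performs on these 8 libraries.

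Alternatives were DESeq2 1.42.0 (test and size factors), library size only, no low-count filter, only the 4 libraries compared, the replicate number as a block, limma 3.58.1 on log2(FPKM + 1), and each library left out. A fit without Col-0 replicate 1 and *ref6* replicate 1 was added after seeing the data. The genes, lists and tests were chosen with earlier results of these data known. The genes named are the 5 synthase genes, listed genes that passed in a comparison, those set by role in the terpene pathway, the mutated and marker genes, and the 3 most alike tested genes of each synthase gene. Sequences and neighbours are from RefSeq, TAIR10.1, in which all 113 listed genes were matched by locus, and TPS11 and TPS24 carry the locus only as their symbol. Closest copies were found with BLAST 2.17.0.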

Additional observations from a re-analysis of the deposited data

How the results depend on the processing

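Of the 30 fold changes of the 5 genes, none passed the test as reported, and 3 passed under an alternative, in 5 fits in all. TPS24 in *elf6* over *jmj13* passed with only the 4 libraries compared (1.19, edgeR adjusted p = 0.0183) and without the 2 libraries that stood apart (1.2, adjusted p = 0.0194, chosen after seeing the data), so that 1 of the 5 genes was called in each of these fits. In the same fits TPS21 had an adjusted p of 0.0362 and 0.0383 (0.0362 to 1 over all alternatives) and missed the 2-fold criterion with a log2 fold change of 0.92. With all 8 libraries kept, TPS24 in *elf6* over *jmj13* had an adjusted p of 0.0693 (edgeR, no filter) to 0.704 (edgeR, library size only). With only the 4 libraries compared, 728 of the 19939 genes tested passed in *elf6* over *jmj13*. The count of all genes for the other fit is given below. In *elf6* over *ref6*, DESeq2 called 1 of the 5 (TPS11, 1.13), where 2.13% of all genes passed. The fit with no filter on low counts called 2, where 449 of 25561 genes passed. These were TPS11 (1.16, edgeR adjusted p = 0.0327) and TPS24 (1.3, edgeR adjusted p = 0.0425). Over all alternatives their adjusted p ran from 0.0253 to 0.732 and from 0.0425 to 0.855. Leaving out each library in turn called 0 of the 5 genes in every comparison.

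Of the 30 fold changes, 12 changed sign under at least 1 alternative, in 26 fits in all (2 of these are 0 when rounded), and the cause was not tested. They include values of -0.42 (TPS14, *jmj13* over Col-0), -0.44 (TPS03, *ref6* over Col-0) and 0.52 (TPS03, *jmj13* over *ref6*) as reported. TPS24 kept its direction but not a 2-fold size in *jmj13* over Col-0 (-1.16 to -0.49 over all alternatives), *ref6* over Col-0 (-1.59 to -0.86), *elf6* over *jmj13* (0.86 to 1.47) and *elf6* over *ref6* (0.96 to 1.72). Without the 2 libraries that stood apart, TPS14 was -0.02 in *elf6* over Col-0, 0.01 in *ref6* over Col-0 and -0.03 in *elf6* over *ref6*. In the same fit TPS03 was 0 in *jmj13* over Col-0, 0.19 in *ref6* over Col-0 and -0.19 in *jmj13* over *ref6*, and TPS24 was -0.22 in *jmj13* over *ref6*. With library size only, TPS14 was 0.01 in *jmj13* over Col-0 and 0.08 in *jmj13* over *ref6*, and with limma 0.04 and 0.17. TPS21 in *ref6* over Col-0 was 0.01 with limma. With each library left out, in *elf6* over Col-0 TPS14 ranged from -0.12 to 0.31 and TPS24 from -0.21 to 0.4, and in *jmj13* over Col-0 TPS03 ranged from -0.28 to 0.38. In *ref6* over Col-0 the ranges were -2.38 to 0.27 for TPS03, -0.55 to 0.13 for TPS14 and -0.31 to 0.25 for TPS21. In *elf6* over *ref6* they were -0.02 to 0.66 for TPS14 and -0.06 to 0.5 for TPS21. In *jmj13* over *ref6* they were -0.19 to 2.46 for TPS03, -0.55 to 0.13 for TPS14 and -0.21 to 0.53 for TPS24. Under library size only, in place of TMM, all genes tested had a median log2 fold change of 0.34 in *elf6* over Col-0, 0.48 in *jmj13* over Col-0, 0.28 in *elf6* over *ref6*, 0.42 in *jmj13* over *ref6* and -0.16 in *elf6* over *jmj13*.

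The number of all genes called, used here only as background, moved with most settings. In *elf6* over Col-0 it was 24 as reported, 437 with DESeq2, 10 with library size only, 505 with no filter, 65 with the 4 libraries, 58 with limma, 490 without the 2 libraries and 0 to 221 with each library left out. In *jmj13* over Col-0 it was 0, and 264 with DESeq2, 235 with no filter, 6 with the 4 libraries, 22 without the 2 libraries and 0 to 213 with each left out. In *ref6* over Col-0 it was 1, and 33 with DESeq2, 32 with no filter, 8 without the 2 libraries, 0 with library size only, the 4 libraries or limma, and 0 to 1 with each left out. In *elf6* over *jmj13* it was 154, and 434, 448, 728 and 722 with DESeq2, no filter, the 4 libraries and without the 2 libraries, 32 with library size only and 0 to 313 with each left out. In *elf6* over *ref6* it was 53, and 424 with DESeq2, 449 with no filter, 26 with library size only, 138 with limma, 231 without the 2 libraries and 0 to 593 with each left out. In *jmj13* over *ref6* it was 6, and 167 with DESeq2, 146 with no filter, 3 with the 4 libraries, 126 without the 2 libraries and 0 to 39 with each left out. The lowest of these included fits without Col-0 replicate 1, *elf6* replicate 1 or 2 or *jmj13* replicate 1, and the highest were without *ref6* replicate 1 or 2 or Col-0 replicate 2.

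The labels give same-numbered libraries a shared number and nothing else. The log2 ratios of replicate 1 to 2 correlated across genes at 0.364 between Col-0 and *ref6*, 0.268 between *elf6* and *jmj13*, and 0.015 to 0.088 in the other pairs of genotypes, so not every pair was over the limit of 0.1 set for pairing, and whether some libraries were handled together is not known. With the replicate number as a block, the counts of all genes called were 290, 2, 287, 210 and 16 in *elf6* over Col-0, *ref6* over Col-0, *elf6* over *jmj13*, *elf6* over *ref6* and *jmj13* over *ref6*, and none of the 5 genes was called. Depth limits TPS03 most, with 2 to 22 counts per library.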
